A study of Mus musculus and Homo sapiens with 20 samples.

Results

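The genes described here encode the histone H2A deubiquitinase complex PR-DUB and its partners: Bap1, Asxl1, Asxl2, Asxl3, Mbd5, Mbd6, Foxk1, Foxk2 and Kdm1b. They were picked by their gene symbol, and they are 9 of 21938 protein-coding genes of the mouse annotation and 9 of 20033 of the human annotation. PR-DUB removes the ubiquitin that Polycomb repressive complex 1 places on histone H2A (H2AK119ub). BAP1 is the catalytic subunit, and an ASXL protein activates it. MBD5 and MBD6 carry a methyl-CpG-binding domain and bind the complex, FOXK1 and FOXK2 are DNA-binding forkhead proteins that bring it to chromatin, and KDM1B is a histone H3 lysine 4 demethylase that has been found with it. H3K27me3, the methyl mark of Polycomb repressive complex 2, often lies on the same chromatin as H2AK119ub, and both are linked to gene repression. The data show where these 2 marks lie on the genes for the eraser itself. They hold no transcript or protein level.

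Peak lists came from CUT&Tag, a method in which an antibody against a chromatin mark guides a transposase that cuts and tags the DNA nearby. H2AK119ub and H3K27me3 were mapped in embryonic stem (mES) cells of the mouse and in HSPCs, the blood stem and progenitor cells taken here as lineage-negative, c-Kit+ bone marrow. Each cell type was compared with intact Tet2 (WT) and without it (KO). The mES cells grew with LIF and inhibitors of MEK and GSK3, and both genotypes were existing lines given to the study. HSPCs came from mice aged 6 to 8 weeks on a C57BL/6 background, and the KO mice were Tet2-/-. The human erythroleukaemia line K562 was mapped for H2AK119ub only, after nucleofection with siRNA to MBD6 (siMBD6) or with a control one (siControl). The labels give no TET2 genotype for these cells. The 20 libraries fell into 10 groups of 2. The study's methods speak of biological replicates for CUT&Tag, but the labels do not say which cultures or animals the 2 libraries of a group came from, so part of the spread between them may be technical.

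Each list held 85121 to 167378 peaks over 132.3 to 260.1 Mb, with positions only and no counts, so depth was unknown. Between 30.4% and 41.4% of the peaks in a list were exactly 501 bp wide. The identities of the cells were checked with markers at their gene starts. At 5 pluripotency genes (Pou5f1, Nanog, Sox2, Zfp42 and Esrrb) the median start window was 100% under H3K27me3 peaks in every HSPC library and 0% in every mES library. At 5 blood genes (Kit, Ptprc, Spi1, Runx1 and Cd34) mES libraries had 40.2% to 64.9% and HSPC libraries 9.15% to 27.3%. For H2AK119ub the pluripotency genes went the other way, with medians of 70.7% to 84.1% in mES libraries and 16.4% to 42.1% in HSPC libraries. The blood genes had 68.1% to 81.0% in HSPC libraries and 54.3% to 72.5% in mES libraries, so for them the H2AK119ub ranges overlapped. In K562 libraries 2 to 3 of 5 erythroid genes (GATA1, LMO2, HBG1, HBG2 and KLF1) had an H2AK119ub peak at the start, beside 33.8% to 42.0% of all genes. Such counts over 5 genes do not establish identity. These lists hold no transcripts, so a marker shows its chromatin mark only. Between 63.0% and 70.9% of all genes had an H2AK119ub peak within 1 kb of the start in each mouse library, so a peak was not read as silence.

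The members share features of sequence that their names did not choose. In the mouse, all 9 had a G and C content above the median of all genes in the window of 1 kb on each side of the start (54.5% to 62.9%, against a median of 51.2%). The ratio of observed to expected CpG in that window was above the median of 0.474 for 8 of 9, with Asxl3 highest at 0.953 and Mbd5 lowest at 0.403. In the human genome 9 of 9 and 8 of 9 were again above the medians. Bap1 and Mbd6 were the short members, with 8.495 and 7.063 kb, whereas Mbd5 spanned 375.9 kb. RefSeq promoters of GRCm38.p6, 250 bases before to 50 after a start, were held for 7 of the 9. Bap1 had 50 CpG in its 300 bases, more than 99.1% of all 32851 promoters (median 7), Asxl2 had 36 and Asxl1 only 13.

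The bases just before the start are printed for 5 of the 7 mouse members with a RefSeq promoter. Mbd5 and Foxk2, which also had called windows, are not printed. Capitals mark CpG, the dinucleotide that MBD domains are named for, and each run ends at the base before the start and is cut short where it would enter an exon of a neighbouring gene. Bap1 is at chr14:31251318-31251449 (plus strand), Asxl1 at chr2:153345649-153345828 (plus), Asxl2 at chr12:3426677-3426856 (plus), Mbd6 at chr10:127289019-127289198 (minus, printed 5′ to 3′ along the gene) and Kdm1b at chr13:47043344-47043498 (plus).
Bap1: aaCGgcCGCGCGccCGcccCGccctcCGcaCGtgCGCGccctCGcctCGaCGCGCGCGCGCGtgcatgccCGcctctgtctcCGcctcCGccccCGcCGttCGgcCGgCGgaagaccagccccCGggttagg
Asxl1: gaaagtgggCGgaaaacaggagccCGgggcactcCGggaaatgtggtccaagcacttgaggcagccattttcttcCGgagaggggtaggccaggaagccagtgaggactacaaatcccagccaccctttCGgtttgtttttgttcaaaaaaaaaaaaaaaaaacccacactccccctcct
Asxl2: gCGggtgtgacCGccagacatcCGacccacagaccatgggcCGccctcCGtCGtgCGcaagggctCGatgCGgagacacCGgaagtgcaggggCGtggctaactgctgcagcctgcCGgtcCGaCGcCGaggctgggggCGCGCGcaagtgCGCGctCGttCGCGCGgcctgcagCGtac
Mbd6: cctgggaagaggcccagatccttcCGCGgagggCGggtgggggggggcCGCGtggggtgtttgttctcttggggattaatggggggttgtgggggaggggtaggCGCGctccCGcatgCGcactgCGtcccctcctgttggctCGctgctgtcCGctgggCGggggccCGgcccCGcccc
Kdm1b: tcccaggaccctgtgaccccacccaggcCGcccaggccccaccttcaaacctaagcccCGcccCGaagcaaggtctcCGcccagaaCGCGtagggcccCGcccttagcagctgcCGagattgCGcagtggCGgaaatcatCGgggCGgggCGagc
The Bap1 run held 27 CpG in 132 bases and was 81.1% G and C, and the Asxl2 run held 25 CpG in 180. The Asxl1 run held 5 CpG in 180 bases at 51.7% G and C. Both Asxl1 and Asxl2 had no peak at the start in mES cells and an H2AK119ub peak there in every HSPC library. Of 3 motifs searched on both strands of the 300-base promoters, GGGCGG (the GC box) was found in at least 1 promoter of all 7 members with an entry and in 35.7% of all promoters. CCGGAA (the ETS core) was found for Asxl1, Asxl2 and Mbd5 and in 14.9% of all promoters, and CACGTG (an E box) for Bap1, Asxl2 and Mbd5 and in 7.15%. The members were counted by gene and the shares by promoter, and the promoters were not matched for G and C or CpG content. A match is a string of letters and not a bound site.

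Coverage was measured in 2 ways in each library. One is the percent of the whole gene under peaks, and the other the percent of the window from 1 kb before to 1 kb after the annotated start. One peak of 501 bp fills 25.04% of that window. A gene was called where every library of one group lay above every library of the other and the means differed by at least 10 percentage points. The share of all protein-coding genes that met the same rule is given as the background. An exact two-sided permutation of 2 libraries against 2 cannot give a p below 0.333, so none of the comparisons by genotype or siRNA could pass 0.05.

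The first question was how the 2 marks lay on the members in the 2 mouse cell types. In HSPCs, 8 of 9 members had an H2AK119ub peak in the start window in every library, beside 59.0% of all 21938 genes. In mES cells 6 of 9 did, near the 59.3% of all genes, while Asxl1 and Asxl2 had none in any library. H3K27me3 was found in every HSPC library at 5 member starts, near the 49.6% of all genes, and in every mES library at 2, Asxl3 and Kdm1b, beside 33.5% of all genes. So H3K27me3 was at fewer starts than H2AK119ub over all genes as well as over the members. The plot of start windows shows the values per library.

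**Figure D1:**
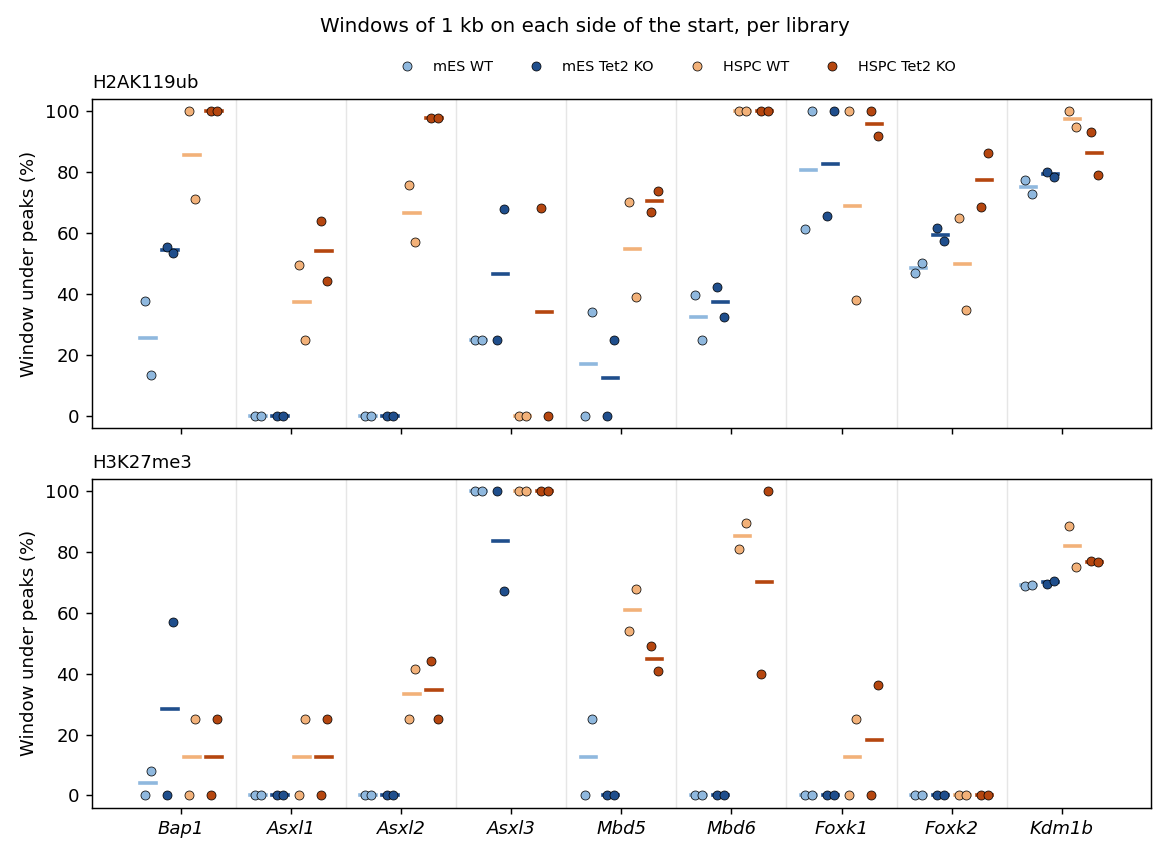
Percent of the window from 1 kb before the start to 1 kb after it under H2AK119ub (top) or H3K27me3 peaks (bottom) for the 9 members in the 16 mouse libraries. Points are libraries and bars are means of 2; Asxl1 and Asxl2 sit at 0 for both marks in mES cells, and Mbd6 sits at 100 for H2AK119ub in all 4 HSPC libraries.

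Bap1 (ENSMUSG00000021901.10; mm10 chromosome 14, 31251450 to 31259944, plus strand), the gene of the catalytic subunit, differed most between the cell types over its whole length. In mES cells H2AK119ub covered none of the gene in either WT library and 7.17% and 0.80% in KO. In HSPCs it covered 58.8% and 61.7% in WT and 60.8% and 40.9% in KO. Every HSPC library was thus above every mES library, by 53.5 percentage points on average (2.0 ± 3.5 in mES cells and 55.5 ± 9.9 in HSPCs, SD, n = 4 each). Bap1 was the only member of 9 called on the whole gene, where 11.4% of all genes were higher in HSPCs by the same rule and 14.2% lower. The two-sided exact permutation test gave p = 0.0286, the smallest that 4 libraries against 4 allow, and 0.0689 after Benjamini-Hochberg adjustment over all genes.

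The position of the peaks at Bap1 differed as well. In the WT mES libraries the single peak lay upstream of the gene, from -1581 to -249 bp and from -1401 to -733 bp relative to the start. In the KO mES libraries it began at -1478 and -1304 bp and ran past the start to 107 and 67 bp, and replicate 1 had 1 further peak of 501 bp within the gene. In HSPCs the start lay inside a peak of 1670 to 4001 bp in all 4 libraries, and further peaks covered the middle and the 3′ part of the gene. Over the exons 46.2% to 78.1% was covered there and over the introns 34.4% to 62.1%. Phf7, a protein-coding gene on the opposite strand, starts just before Bap1, at position -133. Every peak that held the start of Bap1, whatever the mark or cell type, also held that of Phf7, so a signal on the 2 promoters cannot be told apart.

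Over the Bap1 start window, H2AK119ub covered 37.6% and 13.4% in WT mES cells, 55.4% and 53.4% in KO mES cells, 100% and 71.4% in WT HSPCs, and 100% and 100% in KO HSPCs. H3K27me3 at the same window was sparse. It covered 0% and 7.95% in WT mES cells, 0% and 56.9% with Tet2 KO, and 0% and 25.0% in both genotypes of HSPCs. Of the H2AK119ub bases at Bap1 in HSPCs, 8.13% to 15.4% also lay under H3K27me3 in either library of the same genotype, and 0% lay under it in both.

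Mbd6 (ENSMUSG00000025409.14; mm10 chromosome 10, 127281956 to 127289018, minus strand), which encodes the MBD protein that the siRNA targeted in K562 cells, carried H2AK119ub along most of its length in both cell types. Its length was under peaks to 74.4% and 84.2% in WT mES cells, 72.0% and 67.3% in KO mES cells, 84.8% and 92.7% in WT HSPCs, and 71.8% and 86.1% in KO HSPCs. The 2 cell types overlapped. In WT mES cells only 11.3% of all genes reached the mean coverage of Mbd6, and in WT HSPCs 6.04%. Exons and introns were both covered, at 67.5% to 92.1% and 65.6% to 70.9% in mES cells.

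What differed at Mbd6 was its start. In all 4 mES libraries the H2AK119ub peaks stopped between -206 and -102 bp relative to the start and resumed 850 to 1207 bp after it, leaving a gap of 951 to 1412 bp. In all 4 HSPC libraries 1 peak of 7309 to 11856 bp ran across the start with no gap. The start window was accordingly 39.7% and 25.0% covered in WT mES cells, 42.5% and 32.6% in KO mES cells, and 100% in each of the 4 HSPC libraries. H3K27me3 had no peak at Mbd6 in mES cells, with 0% of the gene and of the window in each library. In HSPCs it covered 46.1% and 32.4% of the gene in WT and 7.09% and 36.4% in KO, and 80.9%, 89.6%, 40.0% and 100% of the window. In KO replicate 1 its peaks left a gap of 1232 bp at the start, and this was the lowest library on both measures. The maps of the deposited peaks show the gap and its closure.

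**Figure D2:**
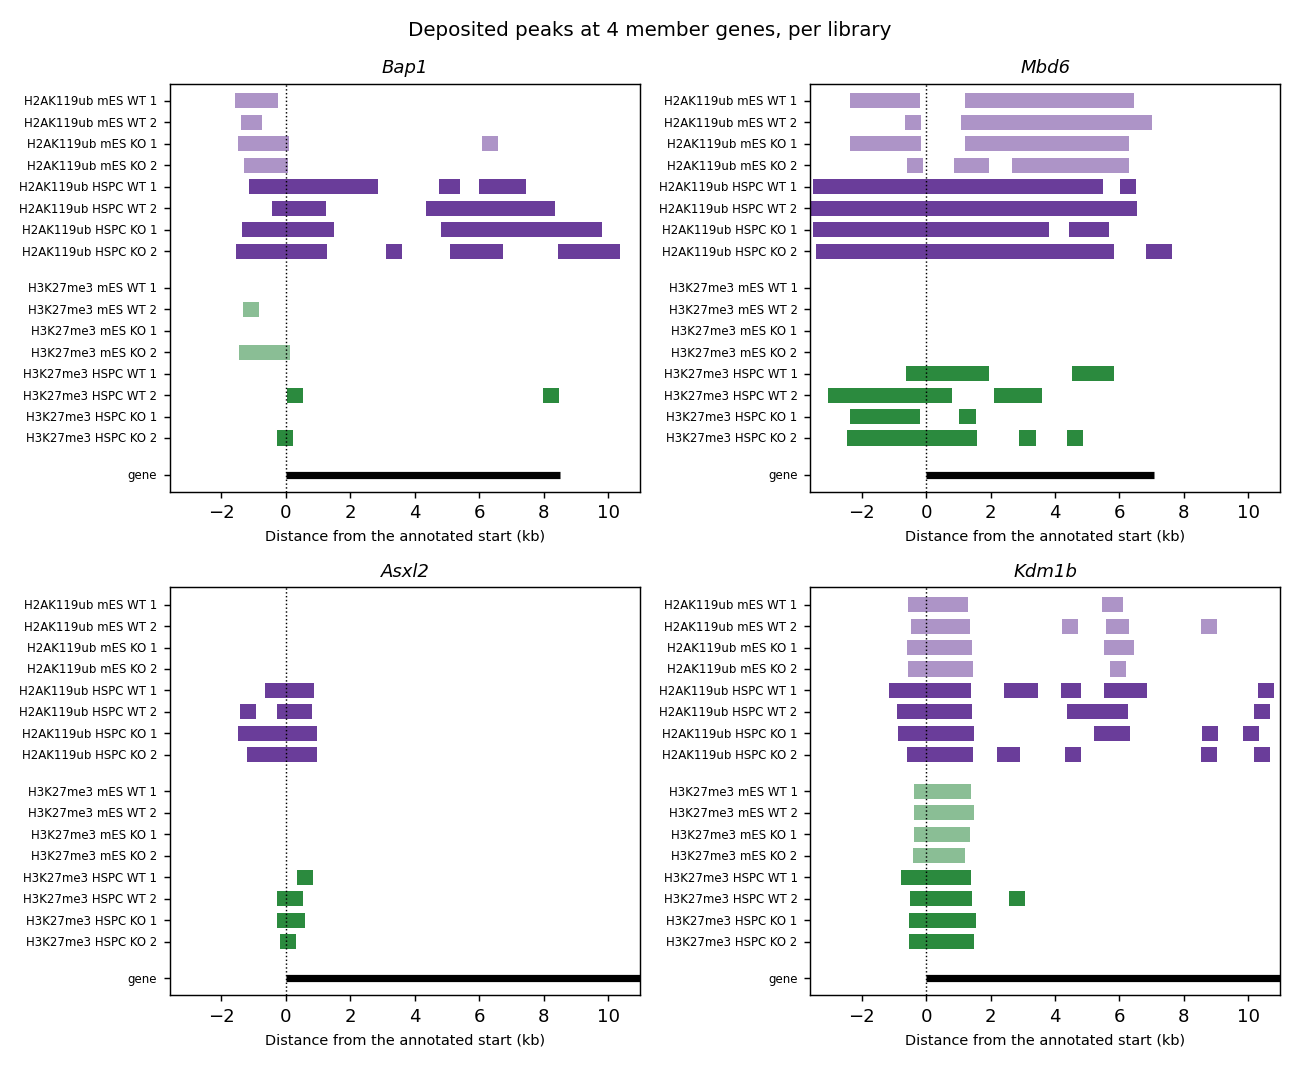
Peaks at Bap1, Mbd6, Asxl2 and Kdm1b against the distance from the annotated start in kb, 1 row per library, purple for H2AK119ub and green for H3K27me3, paler for mES cells and darker for HSPCs, with the gene as a black bar below. Only peaks that overlap the gene or the window of 1 kb on each side of its start are drawn, so an empty flank may hold peaks. H2AK119ub at Bap1 lies upstream of the start in WT mES cells and along the gene in HSPCs, and the gap of 951 to 1412 bp at the Mbd6 start in mES cells is filled in HSPCs.

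The ASXL genes encode the subunits that activate BAP1, and the 3 genes were unlike each other. Asxl1 (ENSMUSG00000042548.14; chromosome 2, 153345829 to 153404007, plus strand) had no peak of either mark at its start in mES cells. In HSPCs its H2AK119ub window was 49.7% and 25.0% covered in WT and 63.9% and 44.2% in KO, under peaks of 501 to 994 bp. Asxl2 (ENSMUSG00000037486.18; chromosome 12, 3426857 to 3506852, plus strand) also had none in mES cells and carried larger peaks in HSPCs, of 1080 to 2434 bp. Its window was 76.0% and 57.2% covered in WT and 97.7% and 98.0% in KO. H3K27me3 covered 25.0% to 44.2% of the Asxl2 window in HSPCs. A non-coding gene starts on the opposite strand 244 bp inside Asxl1 and 154 bp inside Asxl2, and the H2AK119ub peak held both starts in 1 of 4 HSPC libraries at Asxl1 and in 4 of 4 at Asxl2.

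Asxl3 (ENSMUSG00000045215.16; chromosome 18, 22344883 to 22530227, plus strand), a gene best known from the nervous system, was the member with the broadest H3K27me3 domain at its start. A peak of 2573 to 3595 bp held the start in all 4 mES libraries and one of 3455 to 4744 bp in all 4 HSPC libraries. H3K27me3 filled the window in 7 of 8 libraries, the exception being mES KO replicate 2 at 67.3%. H2AK119ub was patchier. It covered 25.0% in both WT mES libraries, 25.0% and 68.0% in KO mES cells, 0% and 0% in WT HSPCs, and 68.2% and 0% in KO HSPCs. The single HSPC library with a peak therefore set the KO mean.

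Kdm1b (ENSMUSG00000038080.17; chromosome 13, 47043499 to 47085279, plus strand) was the one member with both marks at its start in every mouse library. The H2AK119ub peak there ended between 1314 and 1494 bp after the start in all 8 libraries, and the H3K27me3 peak between 1216 and 1532 bp. The upstream edge was more variable, from -1165 to -456 bp for H2AK119ub and from -772 to -379 bp for H3K27me3. Tpmt starts on the opposite strand 1238 bp inside Kdm1b, and 15 of the 16 peaks held both starts. The window was 72.8% to 80.3% under H2AK119ub in mES cells and 79.3% to 100% in HSPCs, and 69.0% to 70.6% and 75.1% to 88.6% under H3K27me3.

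The FOXK genes, whose proteins bind DNA, split in the same data. Foxk1 (ENSMUSG00000056493.9; chromosome 5, 142401497 to 142462011, plus strand) was the long member with the most H2AK119ub along its body: 35.5% to 43.6% of its 60.5 kb in mES cells and 40.1% to 43.5% in HSPCs, under 13 to 20 peaks per library. Its exons were 18.7% to 23.2% covered in mES cells and 49.0% to 67.1% in HSPCs, while its introns were 37.4% to 47.2% and 36.4% to 40.1%. The 2 cell types thus overlapped on the whole gene and did not overlap in the exons. The exons of Foxk1 were singled out after their values were seen, with no test. Foxk2 (ENSMUSG00000039275.9; chromosome 11, 121259990 to 121309896, plus strand) carried 1.00% in each mES library and 3.01% to 6.13% in HSPCs, and no H3K27me3 in the window of any library. As at Mbd6, the peaks left the Foxk2 start free in all 4 mES libraries, with a gap of 593 to 902 bp, and in HSPCs only KO replicate 2 had a peak over it.

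Mbd5 (ENSMUSG00000036792.12; chromosome 2, 48949508 to 49325405, plus strand), the paralogue of Mbd6, had less than 1.3% of its length under either mark in any library. In mES cells its H2AK119ub window was covered to 0% and 34.2% (WT) and to 0% and 25.0% (KO). In HSPCs the WT libraries had 70.3% and 39.0% there, and the KO libraries 67.1% and 73.8%. H3K27me3 there covered 0% and 25.0% in WT mES cells, 0% and 0% in KO mES cells, 54.2% and 67.8% in WT HSPCs, and 49.1% and 40.9% in KO HSPCs. These values belong to the first of the starts of Mbd5, 769 bp from that of Orc4 on the opposite strand. The principal transcript starts 296461 bp further on, and no library of either mark had a peak within 1 kb of that start.

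**Figure D3:**
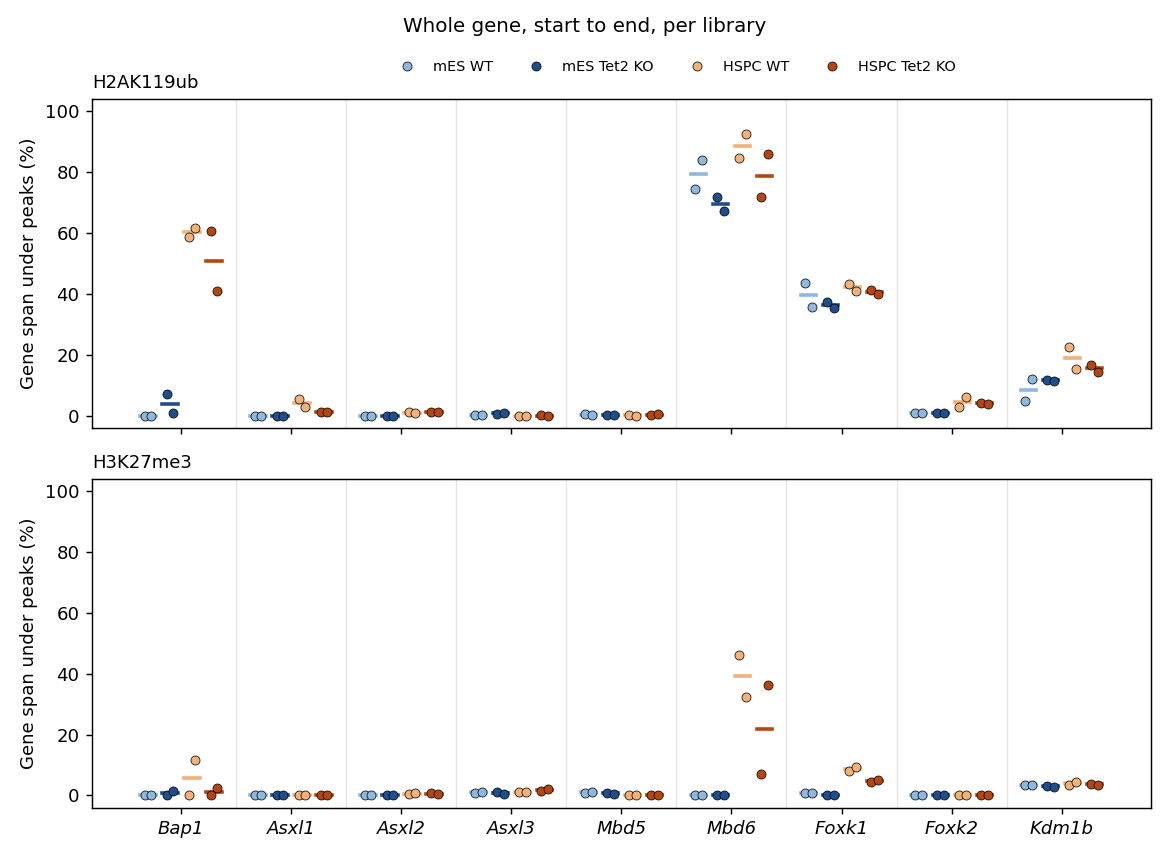
Percent of each whole gene under H2AK119ub (top) or H3K27me3 peaks (bottom) in the 16 mouse libraries, points for libraries and bars for means of 2. Mbd6 and Foxk1 are covered in both cell types, while Bap1 moves from at most 7.17% in mES cells to at least 40.9% in HSPCs for H2AK119ub.

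Set against all genes, the start windows of the members held more H2AK119ub in HSPCs than in mES cells. For H2AK119ub the mean over the 9 members was 37.6% in mES cells and 70.9% in HSPCs, a difference of 33.3 percentage points, with a median of 45.7 points over the members. The mean over all genes was 3.26 points and the median 0. Higher windows were called for Asxl2 (82.2 points), Mbd6 (65.0), Bap1 (52.9), Mbd5 (47.8) and Asxl1 (45.7), or 5 of 9 members against 15.4% of all genes, and no member was lower, beside 8.46%. The exact p was 0.0286 for each of the 5 and 0.118 after adjustment over all genes. With peaks of at least 1 kb no Asxl1 peak remained and Mbd5 was not called (52.8 points, with overlap), and with peaks within 1 kb joined the Mbd6 windows overlapped (43.8 points). Foxk1 differed by less than its spread between libraries (81.8 ± 21.1% and 82.5 ± 29.8%, SD, n = 4 each), and Asxl3 differed by -18.7 points with overlapping libraries.

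For H3K27me3 the mean over the members was 20.4% in mES cells and 42.7% in HSPCs, 22.3 points apart, against 8.22 points over all genes. The median over the members was 12.5 points and over all genes 0. Mbd6 (77.6 points), Mbd5 (46.7) and Asxl2 (33.9) were called higher, 3 of 9 against 22.7% of all genes (exact p = 0.0286, adjusted p = 0.0907). This count was near the share of all genes and was not read as a trait of the members. No member was lower, beside 8.64% of all genes. On the whole gene Mbd6 alone was called higher (30.5 points; 12% of all genes, adjusted exact permutation p = 0.0643), and none was lower (11.9%). With peaks of at least 1 kb no Asxl2 peak remained and neither Mbd5 window (30.5 points) nor Mbd6 gene (25.2 points) was called. Kdm1b windows lay apart as well but by only 9.71 points. Bap1 was not among these genes, since its H3K27me3 window was 16.2 ± 27.4% in mES cells and 12.5 ± 14.5% in HSPCs.

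Benjamini-Hochberg adjustment of the exact permutation test left 0 members under 0.05 in either mark on either measure. No gene at all passed. Too few genes reached the smallest p that 4 libraries against 4 allow for its adjusted value to fall under 0.05. Every gene at that p has the same adjusted value. The adjusted values therefore say nothing about the members in particular. At an unadjusted p under 0.05 there were 5 members on each measure for H2AK119ub, where 41.5% of all genes reached that p on the whole gene and 24.1% in the window. For H3K27me3 there were 4 on each measure, beside 44.4% and 31.5% of all genes. The mES lists were the longer ones, with 154919 to 167378 H2AK119ub peaks against 112734 to 136735 in HSPCs. With all 8 lists cut to the same number of peaks by file order, the mean difference over the members was 39.1 points and the same number of members, 5, was called. Cell type and growth in culture against growth in the animal cannot be told apart here.

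**Figure D4:**
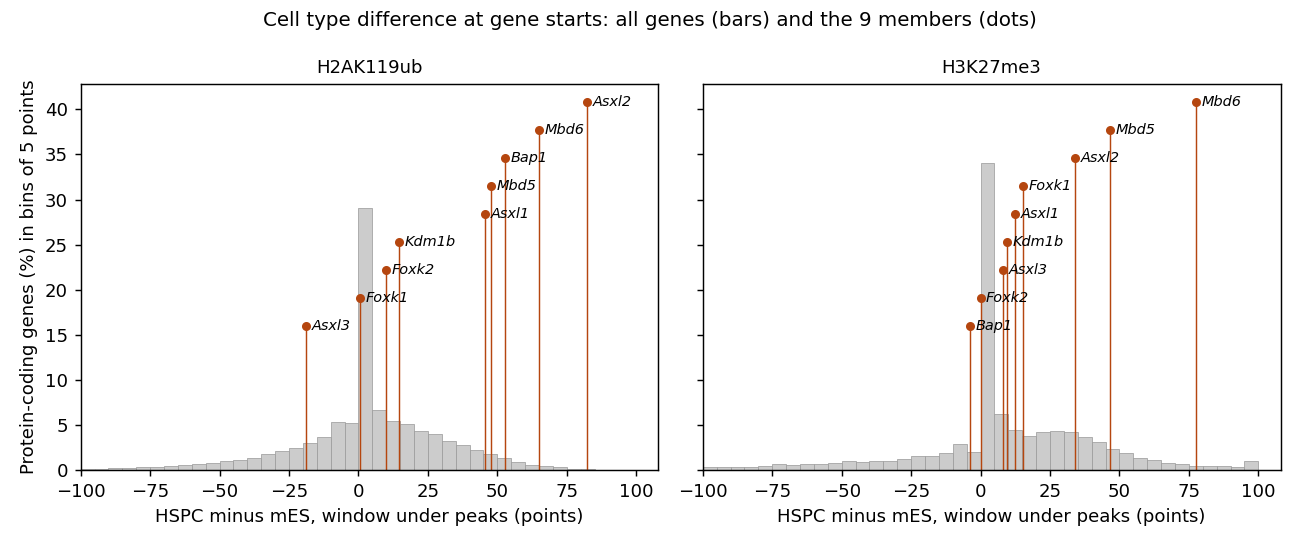
Difference between HSPCs and mES cells in the percent of the start window under H2AK119ub (left) or H3K27me3 peaks (right), with 4 libraries per cell type. Bars give the share of all mouse protein-coding genes in bins of 5 percentage points and dots the 9 members, placed at rising heights only to separate their names; Asxl2 at 82.2 and Mbd6 at 65.0 points lie farthest right for H2AK119ub.

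The next question was whether loss of Tet2 went with a change of these marks at the members. The percent of bases under peaks is not scaled to a spike-in, so it cannot show a global change in level. The paper scaled its CUT&Tag signal by depth and Drosophila chromatin, and reports a global decrease of H2AK119ub after TET2 depletion. In mES cells, H2AK119ub windows were called higher in KO for Bap1 (28.9 points, 25.5 ± 17.1% to 54.4 ± 1.4%, SD, n = 2 each) and Foxk2 (11.1 points, 48.4 ± 2.3% to 59.5 ± 3.0%), or 2 of 9 members where 7.21% of all genes were called higher. The exact p was 0.333 for both, the smallest possible. At Bap1 both KO libraries had the peak across the start and neither WT library did. The KO peaks reached only 107 and 67 bp past the start, and most of their length lay upstream, on the side of Phf7. Which of the 2 genes the difference belongs to was not tested. Without WT replicate 2 the Bap1 difference was 16.8 points, and with 2 kb on each side 11.9 points. At Foxk2 the call was lost without WT replicate 1 (9.42 points) or without KO replicate 1 (8.95 points), and with peaks within 1 kb joined (7.80 points). It was also lost with peaks of at least 1 kb (18.3 points), where only KO replicate 1 had one left in the window. No member was lower in the window (6.4% of all genes were), and none was called on the whole gene, where 3.23% of genes were higher and 3.52% lower. Mbd6 lay apart in the other direction on the whole gene, at 79.3 ± 6.9% in WT and 69.6 ± 3.4% in KO, -9.69 points and so under the limit for a call.

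H3K27me3 in mES cells differed in no member by the rule, in the window or on the whole gene, whereas 14.3% of all genes were lower in KO in the window and 1.46% higher. On the whole gene the shares were 7.45% and 1.53%. Over all genes the mean window difference was -5.78 points, against -0.383 points over the members. No H3K27me3 peak lay in the start window of 5 of the 9 members in any mES library. Kdm1b, which did carry it, held 69.0%, 69.3%, 69.6% and 70.6% across the 4 libraries.

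In HSPCs, H2AK119ub windows were called higher in KO for Asxl2 (31.3 points, 66.6 ± 13.3% to 97.9 ± 0.2%, SD, n = 2 each) and Foxk2 (27.5 points, 50.0 ± 21.3% to 77.5 ± 12.7%), 2 of 9 where 16.6% of all genes were. Kdm1b was called lower (-11.2 points, 97.4 ± 3.6% to 86.2 ± 9.8%), 1 of 9 against 3.83% of all genes. The exact p was 0.333 for each. The mean over the 9 members was 17.2 points higher in KO, beside 6.19 points over all genes. Here 1 library mattered. WT replicate 2 had the shortest list, with 112734 peaks, and the lowest window at Bap1, Asxl1, Asxl2, Mbd5, Foxk1 and Foxk2. Without WT replicate 1, which leaves that library as the only control, these 6 were called higher and Kdm1b was not called (-8.65 points), and without WT replicate 2 the mean difference was 6.11 points. Without KO replicate 2 Kdm1b was at -4.27 points. Foxk2 was at 42.6 points without WT replicate 1 and 12.4 points without WT replicate 2. With 2 kb on each side of the start Foxk2 (4.21 points) and Kdm1b (-1.67 points) were not called. With peaks within 1 kb joined Foxk2 was not called either (25.8 points), because WT replicate 1 then overlapped the KO libraries. On the whole gene no member was called (5.71% of all genes higher, 3.05% lower), and the mean differences of Mbd6 and Bap1 were -9.78 and -9.45 points with overlapping libraries.

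H3K27me3 in HSPCs was called lower in KO in the window of Mbd5 (-15.97 points, with 54.2% and 67.8% in WT and 49.1% and 40.9% in KO), 1 of 9 members beside 6.92% of all genes (exact p = 0.333), and no member was higher where 7.77% of genes were. Without WT replicate 2 the Mbd5 difference was -9.17 points and no longer a call, as with 2 kb on each side (-7.99 points). The whole-gene values gave no call (5.48% of all genes higher, 5.01% lower). The members all lie outside X, where the whole-gene shares were 2.83% higher and 5.24% lower. Foxk1 lay apart there by less than the limit, with 7.97% and 9.50% in WT and 4.35% and 4.98% in KO. At Mbd6 the KO libraries stood at 7.09% and 36.4%, which overlapped the WT libraries.

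For Kdm1b, alone among the members, the H2AK119ub window moved in opposite directions with KO in the 2 cell types with the libraries apart in each, as it did for 2.94% of all genes. Both KO libraries were above both WT libraries in mES cells (4.25 points) and below both in HSPCs (-11.2 points). The difference of -15.5 points had an exact permutation p of 0.0556 over 36 arrangements, which did not pass 0.05. It is the smallest they allow, and any gene with this pattern reaches it, so it adds nothing to the pattern. For the other 8 members the permutation p for H2AK119ub in the window was between 0.333 and 1.

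Depletion of MBD6 in K562 cells asked the reverse question, what happens to the mark the complex removes on the genes of the complex. The targeted gene comes first. MBD6 (hg38 chromosome 12, plus strand, 57520710 to 57530148; ENSG00000166987.15) had peaks on 15.7% and 19.9% of its length with siControl, against 14.4% and 15.9% with siMBD6. These lists cannot show how far the siRNA lowered the transcript. Its start window held no peak in siControl cells and was 25.0% and 40.8% covered in siMBD6 cells, where the 2 peaks ended at -108 and -106 bp, just before the first annotated start and across the start of a gene on the opposite strand at -230 bp. MBD6 was the 1 member of 9 called higher in the window (32.9 points; 11.5% of all genes). The principal MBD6 transcript starts 2114 bp downstream, and around that start siControl libraries held 6.95% and 25.0% and siMBD6 libraries 2.85% and 25.0%. With peaks under 1 kb left out, no peak remained in the MBD6 window of any library.

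BAP1 (ENSG00000163930.10; chromosome 3, 52401008 to 52410008, minus strand) was the only member called on the whole gene, with 16.04% and 18.04% after siControl against 49.3% and 21.4% after siMBD6 (18.3 points; 14% of all genes were higher; exact p = 0.333). Unlike in the mouse cells, no peak came within 2.8 kb of its start in any of the 4 libraries. The farthest peaks ended 10066 and 8698 bp from the start in siControl and 10382 and 13818 bp in siMBD6 cells, where the gene itself is 9001 bp long. Those of siMBD6 cells were 4318 and 6745 bp wide and those of siControl cells 1164 and 1624 bp. Replicate 1 set the size of the difference, since without it BAP1 was 4.37 points higher and not called, and without siMBD6 replicate 2 it was 32.2 points higher.

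FOXK1 was higher in both siMBD6 libraries, at 7.52% and 11.9% of the gene against 4.40% and 5.44%, but by less than 10 points, and its peaks numbered 11 and 14 against 6 and 8. ASXL2, ASXL3 and FOXK2 had no peak in the window in any library. ASXL1 had one in siMBD6 replicate 2 (37.8%), MBD5 in siMBD6 replicate 1 (25.0%) and KDM1B in siControl replicate 1 and siMBD6 replicate 1 (25.0% each). FOXK1 was the only member with a peak in the window of every library, at 6.45% to 10.1%. With the full lists no member was called lower, and few genes were (0.215% on the whole gene and 1.49% in the window). The siMBD6 lists held 107166 and 110860 peaks and the siControl lists 91721 and 91776. With lists of equal length by file order, the BAP1 difference was 18.3 points and the MBD6 window difference 32.9 points. That setting also called 1 member lower on the whole gene. That member was MBD6, the target of the siRNA. Cutting a list can only remove coverage, and besides BAP1, which was called higher, only MBD6 had more than 10% of its length covered in siControl cells.

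**Figure D5:**
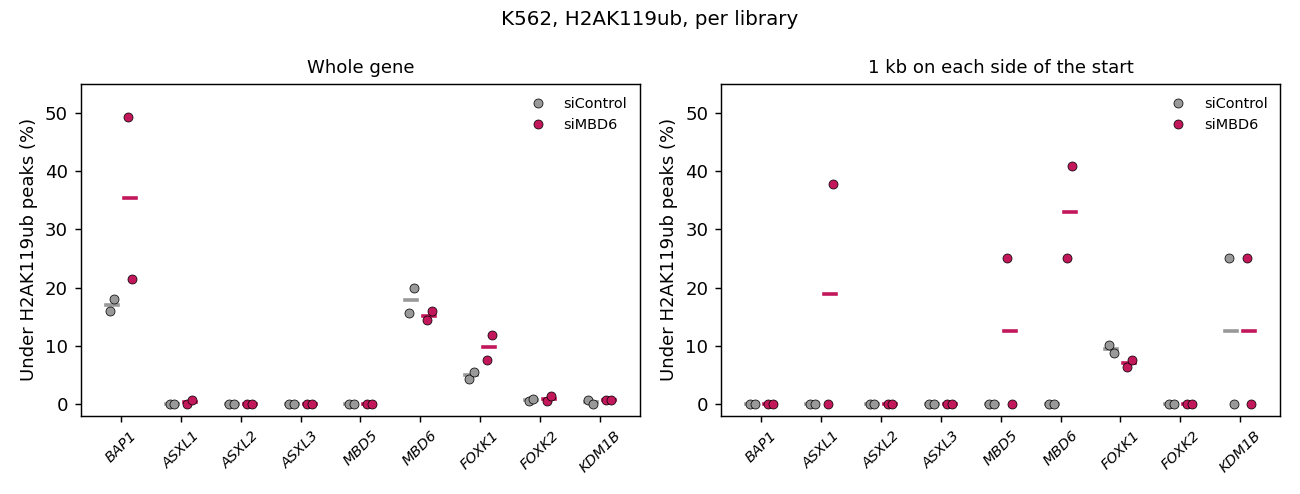
Percent of the whole gene (left) and of the window of 1 kb on each side of the start (right) under H2AK119ub peaks for the 9 members in K562 cells, points for libraries and bars for means of 2. BAP1 on the whole gene and MBD6 in the window are the 2 cases in which both siMBD6 libraries lie above both siControl libraries by at least 10 points on average.

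A list of 19 further genes of the pathway was read in the same way. It holds the PR-DUB partners Ogt and Hcfc1, 6 other H2A deubiquitinases, 3 ubiquitin C-terminal hydrolases, other MBD genes, the H2A ubiquitin ligases Ring1 and Rnf2, and Kdm1a. Between cell types, 6 of the 19 H2AK119ub windows were higher in HSPCs and 1 lower: Usp21 (49.5 points), Rnf2 (43.3), Mysm1 (34.6), Usp22 (19.8), Uchl5 (19.8) and Mbd4 (15.7) were higher and Usp44 (-44.5) lower. Of all genes, 15.4% had a higher H2AK119ub window and 8.46% a lower one. The median over the list was 15.7 points for this mark, below the 45.7 points of the members. On the whole gene Usp21 (67.0), Hcfc1 (21.7) and Usp22 (20.2) were higher, as were 11.4% of all genes. For H3K27me3, the windows of Usp22 (42.4), Hcfc1 (39.7), Uchl1 (39.7) and Uchl5 (23.2) were higher and that of Usp3 (-34.0) lower, and Uchl1 was higher on the whole gene (49.4). The Hcfc1 value came mostly from the Tet2 KO libraries of HSPCs (84.9% and 62.5%), since WT HSPCs had 9.35% and 2.15% and every mES library 0%. Of all genes, 22.7% had a higher H3K27me3 window and 8.64% a lower one, and 12% were higher on the whole gene. The median over the list was 15.99 points for H3K27me3, above the 12.5 points of the members.

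With loss of Tet2 in mES cells, H3K27me3 windows were lower at 7 of the 19 and higher at none: Uchl1 (-46.5 points), Mbd4 (-34.7), Usp44 (-27.9), Mbd3 (-27.8), Uchl3 (-25.0), Mbd2 (-25.0) and Uchl5 (-14.2), with Usp44 also lower on the whole gene (-14.1). Of all genes 14.3% were lower by this rule in the window and 7.45% on the whole gene, and of the members 0 of 9. For H2AK119ub windows in mES cells, Usp16 (26.96) was higher and Mbd4 (-19.0) lower, beside 7.21% and 6.4% of all genes. In HSPCs, 6 H2AK119ub windows were higher in KO, at Hcfc1 (44.1), Uchl1 (33.3), Usp21 (31.3), Ogt (22.5), Uchl3 (18.7) and Mbd2 (15.1), and none was lower. On the whole gene Hcfc1 (21.6) was higher and Usp21 (-25.0) and Ring1 (-16.9) lower. Over all genes 16.6% of windows were higher and 3.83% lower, and on the whole gene 5.71% and 3.05%. Hcfc1 and Ogt lie on X, where 16.1% of genes were higher on the whole gene, beside 5.24% on other chromosomes. The mean H2AK119ub coverage of genes on X was 2.66% and 1.46% in the WT and 8.01% and 8.33% in the KO libraries.

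For H3K27me3 in HSPCs, Hcfc1 (86.2 points) and Ogt (26.0), both on X, were higher in KO on the whole gene, and Mbd3 (-32.5) was lower. Of the genes on X, 64.1% were higher by this rule and 2.83% of those on other chromosomes. The mean H3K27me3 coverage of genes on X was 3.84% and 4.04% in the WT and 34.7% and 31.0% in the KO libraries. The labels do not give the sex of the mice, its part in these values was not tested, and all 9 members lie on autosomes. In the windows Ogt (76.8), Hcfc1 (68.0), Usp44 (40.9), Usp16 (32.0) and Mysm1 (28.8) were higher and Usp21 (-30.1), Kdm1a (-25.0) and Uchl5 (-13.3) lower. Over all genes 7.77% of these windows were higher and 6.92% lower, and on the whole gene 5.48% and 5.01%. In K562 cells, the H2AK119ub windows of USP21 (44.2) and UCHL3 (28.2) were higher after siMBD6, as were those of 11.5% of all genes.

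The genes whose coverage was most like that of Bap1 over the 16 mouse libraries were Gm5767, Hist1h3f and Bag6, with mean absolute differences of 2.48, 3.17 and 3.71 percentage points of the whole gene. Those most like Mbd6 were Slc35b2, Zfp691 and Ruvbl2, at 6.13, 6.33 and 6.49 points. Among the members themselves, H2AK119ub and H3K27me3 shared bases to very different degrees. In WT HSPCs, 77.6% and 76.2% of the H2AK119ub bases at Mbd6 also lay under H3K27me3 in at least 1 library of that genotype, but only 20.2% and 18.7% lay under it in both. In KO HSPCs these shares were 57.9% and 50.5% for at least 1 library and 21.4% and 18.4% for both. At Foxk2 the share was 0% in every library of both cell types, and at Mbd6 in mES cells it was likewise 0%.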

How the data were processed

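CUT&Tag peak lists for H2AK119ub and H3K27me3 from 20 libraries were analysed, and the labels supplied groups and replicate numbers. The authors' reads were trimmed (Trimmomatic 0.39) and mapped by bowtie2 2.4.1 to mm10 or hg38, with a Drosophila spike-in. Duplicates were removed with Picard and MACS2 called broad peaks. HOMER 4.9 appears in the submitters' processing notes without a role. The deposited files give peak positions alone, without scores, counts or depth, and each library has its own list.

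For all protein-coding genes of GENCODE M21 (mouse) and 44 (human), the percent of bases under peaks was taken over the gene and over 1 kb on each side of its first start. Software was Python 3.11.15, numpy 2.4.6, pandas 2.3.3 and matplotlib 3.10.9. Promoter sequences are from RefSeq, GRCm38.p6. Tests were two-sided exact permutations of libraries, 6 assignments for 2 against 2 and 70 for 4 against 4, and 36 arrangements for the difference between Tet2 effects. Named genes are the 9 members, called genes of a list of 19 pathway genes (values of 1 of them are not reported here), and the 3 genes nearest in coverage to Bap1 and to Mbd6. The members and lists were chosen with earlier results of these data known. Coverage and calls were tested on simulated data. Alternatives were peaks of at least 1 kb, peaks within 1 kb joined, lists of equal length, 2 kb on each side, the principal transcript start, leaving out each library, a replicate block, WT libraries only, and calls at 5 or 20 points.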

Additional observations from a re-analysis of the deposited data

Results flagged for a closer look

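Kdm1b was singled out because its H2AK119ub window was above both WT libraries in each Tet2 KO library of mES cells (4.25 percentage points) and below both in each of HSPCs (-11.2 points). The difference between these Tet2 effects was -15.5 points, with an exact permutation p of 0.0556, which did not pass 0.05. It is the smallest these libraries allow and follows from the pattern itself, which 2.94% of all genes showed. The HSPC value was no longer a call without HSPC WT replicate 1 (-8.65 points) or HSPC KO replicate 2 (-4.27 points), and it was -1.67 points with 2 kb on each side of the start. The peak also covers the start of Tpmt, and which of the 2 genes the values belong to was not tested.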

How the results depend on the processing

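Calls of single members were made on 18 occasions. All 18 held with lists of equal length, 15 of 18 with peaks joined and 11 of 18 with peaks of at least 1 kb, and 12 of 15 window calls held with 2 kb on each side and 11 of 15 at the principal start. The cause of the losses was not tested. Depth is unknown, and its effect on these lists could not be measured. Lists of equal length kept the first peaks in file order, whose meaning is not known, so they do not stand for equal depth. For Tet2 KO against WT in mES cells, joining peaks gave a mean H2AK119ub difference over the members of 0.710 points on the whole gene, and calls at 5 points gave 1 member there. The 2 window calls became 1 with peaks of at least 1 kb and 1 at 20 points. For H3K27me3 the whole-gene mean was -0.0332 with peaks of at least 1 kb. In HSPCs the H2AK119ub whole-gene mean was -2.08 with peaks of at least 1 kb and -3.93 with joining, which also gave 1 call, and 2 kb on each side left 1 window call. For H3K27me3 there was 1 whole-gene call with peaks of at least 1 kb, and the window call went to 0 with 2 kb on each side, at the principal start and at 20 points. In K562 cells lists of equal length gave 2 whole-gene calls (1 higher, 1 lower) and 20 points gave 0. The mean window difference turned to -1.06 with peaks of at least 1 kb, with 0 calls, and was 4.45 with 2 kb on each side and 2.99 at the principal start, with 0 calls, where MBD6 itself turned to -2.05. For HSPCs against mES cells, the H2AK119ub whole-gene mean was 8.16 with peaks of at least 1 kb, 10.1 with joining and 10.2 in WT libraries only, and joining, WT libraries only and 5 points each gave 2 calls. Its window mean was 19.7 with 2 kb on each side, and 3 window calls stayed with peaks of at least 1 kb. The H3K27me3 whole-gene mean was 3.00 with peaks of at least 1 kb (0 calls) and 5.94 in WT libraries only, 5 points gave 2 calls, and the window mean was 13.4 with 1 call for peaks of at least 1 kb.

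Leaving out each library in turn gave these ranges. In mES cells the H2AK119ub means were -1.33 to 0.176 (whole gene, 0 to 1 calls) and 2.92 to 12.3 (window, 2 to 3 calls), and the H3K27me3 means -0.149 to -0.0645 (0 calls) and -2.23 to 1.47 (0 to 2 calls). In HSPCs they were -3.55 to -2.52 (0 to 2 calls) and 6.11 to 28.4 (3 to 6 calls) for H2AK119ub, and -4.70 to -1.07 (0 to 1 calls) and -9.84 to 3.34 (1 to 3 calls) for H3K27me3. In K562 cells they were 1.25 to 3.52 (0 to 1 calls) and 5.41 to 8.34 (1 to 2 calls). Between cell types they were 8.39 to 9.61 (1 to 2 calls) and 28.9 to 39.9 (5 to 6 calls) for H2AK119ub, and 4.05 to 5.64 (1 call) and 19.9 to 25.00 (3 to 4 calls) for H3K27me3.

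Libraries share only a replicate number, and the correlation of same-numbered deviations was -0.30 to 0.0394. With the replicate block the HSPC H2AK119ub window had 4 calls (3 without), and a block within genotype and number gave 6 between cell types (5 without), while no other count of calls moved. Crossing the numbers for mES H3K27me3, a choice made after seeing the data, gave 0 calls on both measures.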
